A study of Mus musculus with 6 samples.

Results

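T cell costimulatory receptors were followed through 10 genes, taken from a list of named receptors by a rule that uses no measured value: Cd28, Icos, Cd27, Tnfrsf4, Tnfrsf9, Tnfrsf18, Tnfrsf1b, Cd226, Cd2 and Slamf6. They are 10 of the 26181 genes in the table of normalised read counts, and all 10 reached the mean of 10 normalised counts that a gene needed to be tested. Although the rule uses no measured value, the list itself was chosen with earlier results of these data known. RNA was sequenced from CD8+ T cells of the spleens of wild-type C57BL/6 mice, 6 weeks of age when the experiment began. One group of 3 libraries came from mice on the diet labelled ND. The other 3 came from mice on CDAHFD, a high-fat diet without choline and with defined amino acids, which served as a model of fatty liver inflammation. Both groups were fed for 7 weeks. The labels do not state how the CD8+ cells were purified. They also do not say whether the libraries of a diet were separate animals, so the p-values rest on library-to-library variation that could be technical.

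A T cell that binds antigen through its receptor needs further signals to divide, survive and gain effector functions, and costimulatory receptors carry those signals. CD28 and ICOS belong to the immunoglobulin superfamily and bind B7-family proteins on antigen-presenting cells, acting largely through phosphoinositide 3-kinase. CD27, OX40 (Tnfrsf4), CD137 (Tnfrsf9), GITR (Tnfrsf18) and TNFR2 (Tnfrsf1b) belong to the TNF receptor family and recruit TRAF adaptors, which feed NF-kB. CD226, CD2 and SLAMF6 are immunoglobulin-fold adhesion and signalling receptors. CD28 and CD27 are carried by naive CD8+ T cells, whereas OX40, CD137 and ICOS are best known for appearing after activation.

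On the authors' normalisation, 7 of the 10 genes changed between the diets (limma, adjusted p under 0.05). Cd28 and Tnfrsf1b rose on CDAHFD, and Cd27, Tnfrsf9, Cd226, Cd2 and Slamf6 fell. With 7 T cell genes held level, however, Cd2 was higher and Cd27 and Cd226 were not called. Both points depend on the reference. Against Cd3e alone the log2 ratio of Cd2 differed by -0.092, with overlap, and that of Cd27 by -0.24, without overlap. Icos, Tnfrsf4 and Tnfrsf18 did not pass the test. The log2 fold changes ran from -0.69 for Tnfrsf9 to 0.73 for Tnfrsf1b, with a median of -0.15, against -0.01 over all 15819 genes tested. Calls were common in these data: 47.1% of all tested genes were called, 24.6% as higher and 22.5% as lower on CDAHFD. The libraries of the diets did not overlap for 6 of the 10 genes, against 54.3% of all tested genes.

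The promoters of the genes with the largest rise and the largest fall among the 10 are shown so that the changes below can be set beside their sequence. Each window runs from 250 bases before to 50 bases after a RefSeq transcript start on GRCm38.p6, the build also called mm10. Such windows are described here for 6 of the 10 genes. The windows were searched on both strands for 8 motifs, and capitals mark the matches. The Tnfrsf1b window, chr4:145246821-145247120 on the minus strand, holds 1 ETS match (CCGGAA, in 14.9% of all 32851 mouse promoter windows) and 2 GC boxes (GGGCGG, in 35.7%, here read on the other strand). Tnfrsf9 has 2 windows, and the one shown, chr4:150927749-150928048 on the plus strand, holds 2 overlapping NF-kB matches (in 4.51% of windows), an AP-1 match (TGANTCA, in 7.81%) and a RUNX match (TGTGGT, in 16.8%). Counts are per gene, so these data do not give which Tnfrsf9 start was used.
Tnfrsf1b: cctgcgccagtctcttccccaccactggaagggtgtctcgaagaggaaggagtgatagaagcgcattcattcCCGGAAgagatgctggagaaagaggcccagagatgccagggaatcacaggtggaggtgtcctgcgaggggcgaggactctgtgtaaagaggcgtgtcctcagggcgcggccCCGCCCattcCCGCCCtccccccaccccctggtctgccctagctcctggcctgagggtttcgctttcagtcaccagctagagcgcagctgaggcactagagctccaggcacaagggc
Tnfrsf9: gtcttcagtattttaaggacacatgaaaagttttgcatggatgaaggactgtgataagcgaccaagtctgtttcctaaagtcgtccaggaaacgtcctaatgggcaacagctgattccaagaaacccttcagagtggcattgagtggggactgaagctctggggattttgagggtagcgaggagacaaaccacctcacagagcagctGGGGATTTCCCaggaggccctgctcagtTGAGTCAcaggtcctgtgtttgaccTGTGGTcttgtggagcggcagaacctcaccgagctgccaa
The other Tnfrsf9 window, chr4:150919905-150920204, held 1 TCF match (CTTTGA, in 16.0% of windows) and 1 GC box. Tnfrsf18 had 1 ETS match, Cd27 had 1 TCF match, and the windows of Slamf6 and Tnfrsf4 had no match to any of the 8 motifs. The remaining motifs searched were CRE (TGACGTCA, in 1.79%) and the TATA box (TATAAA, in 13.6%). A match describes these letters only, and no factor binding was measured.

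Cd28 encodes the receptor for CD80 and CD86 and spans 60716800 to 60773359 on the plus strand of chromosome 1. It gave 3306, 3103 and 3273 normalised counts in the ND libraries and 4369, 4199 and 4088 in the CDAHFD libraries. Every CDAHFD library lay above every ND library. The mean rose 1.31-fold, from 3227 ± 109 to 4219 ± 141 (SD, n = 3 each), a log2 fold change of 0.39 with an SE of 0.04 (limma, adjusted p = 1.28e-08). A rise of this size or more was seen in 19.8% of all tested genes.

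Icos, whose product binds ICOS ligand and helps T cell and B cell cooperation, lies near Cd28 on the same chromosome, from 60977927 to 61000320 on the plus strand. It gave 1207, 1293 and 1351 normalised counts on ND and 1240, 1133 and 1185 on CDAHFD. The diets overlapped, since the first CDAHFD library exceeded the first ND library. The log2 fold change was -0.11 (95% interval -0.23 to 0.0014, SE 0.06, limma, adjusted p = 0.0992). Leaving out the first ND library gave -0.16 (adjusted p = 0.0439) and leaving out the first CDAHFD library gave -0.15 (adjusted p = 0.0328), so single libraries decided whether Icos was called. Over the alternatives other than the T cell scaling described below, the adjusted p for Icos ran from 0.0328 to 0.355. Between Cd28 and Icos lies Ctla4 (60887000 to 60915832), and the log2 fold changes of the 3 neighbours were 0.39, 0.78 and -0.11 in that order.

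**Figure D1:**
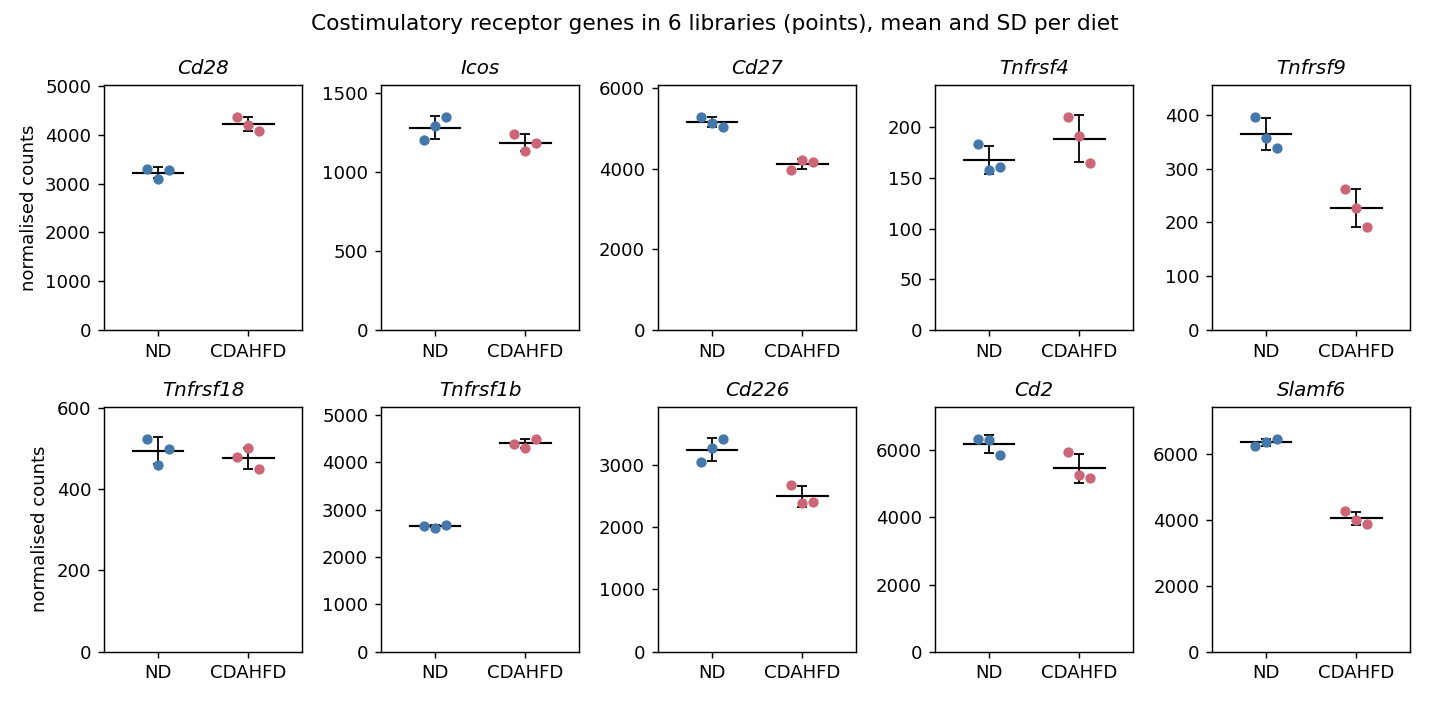
Normalised counts of the 10 costimulatory receptor genes on ND and CDAHFD, with 1 point per library and the mean ± SD of 3 libraries. Cd28 and Tnfrsf1b lie higher on CDAHFD without overlap, Cd27, Tnfrsf9, Cd226 and Slamf6 lie lower without overlap, and the other 4 genes overlap between the diets, all on the authors' normalisation.

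The 5 genes of the TNF receptor family did not move together: 1 rose, 2 fell and the other 2 were not called. With T cell genes held level (a scaling described below) the counts were 3, 1 and 1, where 61.0% of all tested genes were higher. Tnfrsf1b, on chromosome 4 from 145213463 to 145246870 on the minus strand, encodes the TNF receptor that binds membrane-bound TNF best and has no death domain. It gave 2655, 2620.3 and 2670.0 normalised counts on ND and 4381, 4305 and 4496 on CDAHFD. All CDAHFD libraries stood far above the ND libraries, with means of 4394 ± 96.1 and 2649 ± 25.5 (SD, n = 3 each). The rise was 1.66-fold, with a log2 fold change of 0.73 ± 0.04 (SE, limma with adjusted p = 7.75e-15). A log2 fold change at least this high was found for 12.5% of all tested genes.

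Tnfrsf9, on chromosome 4 from 150914562 to 150946102 on the plus strand, encodes CD137, a receptor that appears on recently activated CD8+ T cells. Its 3 ND libraries held 396, 357 and 338 normalised counts, and its CDAHFD libraries held 261, 226 and 191. No CDAHFD library reached the lowest ND library. The mean was 364 ± 29.4 on ND and 226 ± 35.2 on CDAHFD (SD, n = 3 each), 1.61-fold higher on ND, with a log2 fold change of -0.69 ± 0.11 (SE, limma with adjusted p = 4.67e-06). A log2 fold change this low or lower occurred in 4.75% of tested genes. Its SE was the largest among the 7 called genes.

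Cd27, the receptor for CD70 and a gene of naive and early memory cells, spans 125232622 to 125237010 on the minus strand of chromosome 6. It gave 5294, 5149 and 5038 normalised counts on ND and 3982, 4226 and 4166 on CDAHFD. The diets did not overlap. The mean went from 5160.3 ± 128 to 4125 ± 127 (SD, n = 3 each), so that it fell by 20.1%, with a log2 fold change of -0.32 ± 0.04 (SE, limma with adjusted p = 1.48e-07). This fall is measured against the average gene of the library, and it is no longer present when the mean of 7 T cell genes sets the scale, as given below. Against 1 of those genes alone, Cd3e, the log2 ratio of Cd27 still differed by -0.24, without overlap between the diets.

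Tnfrsf4 and Tnfrsf18 are neighbours on chromosome 4, Tnfrsf4 from 156013843 to 156016612 and Tnfrsf18 from 156026164 to 156028895, both on the plus strand. Tnfrsf4, which encodes OX40, gave 183, 158 and 161 normalised counts on ND and 210.4, 191 and 165 on CDAHFD. Its diets overlapped, and the log2 fold change was 0.17 (95% interval -0.08 to 0.42, limma, adjusted p = 0.278). Tnfrsf18, which encodes GITR, gave 524, 459 and 499.7 on ND and 479, 501 and 449 on CDAHFD. The diets overlapped here too, with a log2 fold change of -0.05 (95% interval -0.21 to 0.11, limma, adjusted p = 0.612). The antisense gene Gm16008 shares 414 exonic bases with Tnfrsf18. The labels do not say whether counting used strand, and Gm16008 itself held between 4.23 and 14.3 normalised counts per library.

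The 3 immunoglobulin-fold adhesion receptors all fell on the authors' normalisation. With 7 T cell genes held level, Slamf6 fell, Cd2 was higher and Cd226 did not pass the test, where 61.0% of all tested genes were higher. Against Cd3e alone the log2 ratio of Cd2 differed by -0.092 and overlapped between the diets. Slamf6, which binds itself on neighbouring cells and signals through SAP-family adaptors, spans 171917515 to 171953170 on the plus strand of chromosome 1. It gave 6231, 6349 and 6461 normalised counts on ND and 4255, 3984 and 3884 on CDAHFD. The gap between the diets was many times the spread within either diet. The mean was 6347 ± 115 on ND and 4041 ± 192 on CDAHFD (SD, n = 3 each), 1.57-fold higher on ND, with a log2 fold change of -0.65 ± 0.04 (SE, limma with adjusted p = 1.41e-13). Among all tested genes, 5.41% had a log2 fold change this low or lower.

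Cd226 encodes DNAM-1, an activating receptor for CD155 and CD112 on target cells. It gave 3041, 3270.3 and 3418 normalised counts on ND and 2675, 2388 and 2405 on CDAHFD, without overlap. The mean went from 3243 ± 190 to 2489.6 ± 161 (SD, n = 3 each), with a log2 fold change of -0.38 ± 0.05 (SE, limma with adjusted p = 4.35e-07).

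Cd2, the receptor for CD48 in mice and an adhesion molecule of all T cells, spans 101275899 to 101287939 on the minus strand of chromosome 3. It gave 6351, 6324 and 5877 normalised counts on ND and 5959.9, 5279 and 5163 on CDAHFD. The first CDAHFD library exceeded the third ND library, so the diets overlapped. The log2 fold change was -0.18 (SE 0.05, limma, adjusted p = 0.00357), the smallest among the called genes. Over the alternatives apart from the T cell scaling the adjusted p ran from 3.86e-06 to 0.108, the last in limma without the mean-variance trend and robust estimation, where the call was lost.

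Because levels can be compared between genes only per length, normalised counts were divided by the exonic length of each gene. On ND the order of normalised counts per kb was Cd2 (3552), Cd27 (2217), Tnfrsf1b (694), Cd226 (663), Slamf6 (586), Cd28 (527), Icos (374), Tnfrsf18 (324), Tnfrsf9 (134) and Tnfrsf4 (123). The libraries of Tnfrsf1b and Cd226 overlapped in that order, as did those of Tnfrsf9 and Tnfrsf4, and the other neighbours did not. On CDAHFD, Cd2 (3140.3) and Cd27 (1772) still led, followed by Tnfrsf1b (1151), Cd28 (689), Cd226 (509), Slamf6 (373), Icos (346), Tnfrsf18 (313), Tnfrsf4 (138) and Tnfrsf9 (83.1). There, Slamf6 and Icos overlapped and no other neighbours did. Cd28 thus stood below Cd226 and Slamf6 on ND and above both on CDAHFD, and this order does not depend on how libraries are scaled. Exonic length counts all annotated exons of a gene, and may exceed the length of the transcripts present.

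**Figure D2:**
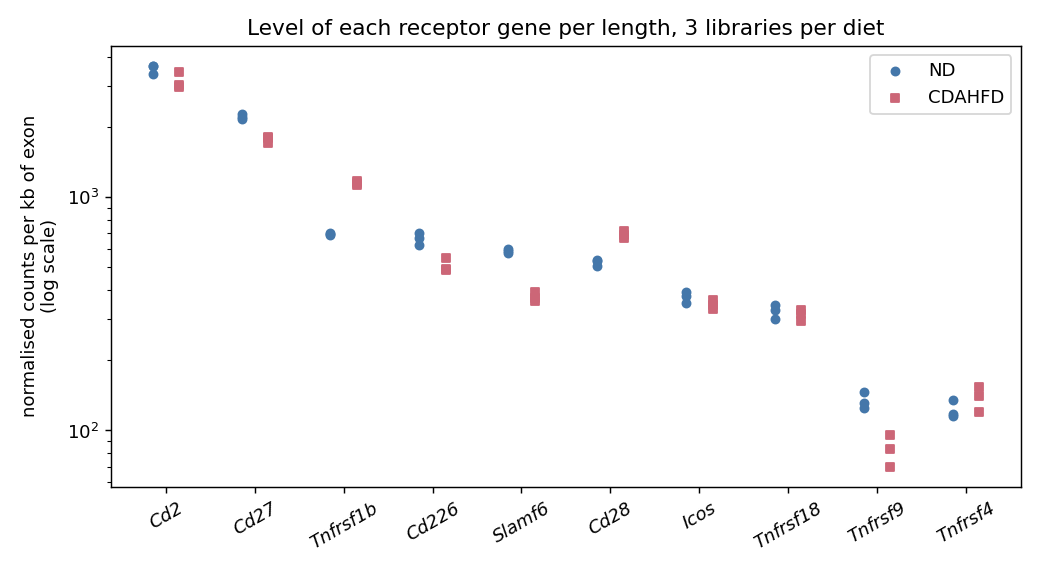
Level of each receptor gene in normalised counts per kb of exon, on a log axis, with 1 point per library and genes ordered by their ND mean. Cd2 and Cd27 lie highest and Tnfrsf9 and Tnfrsf4 lowest on both diets, while Cd28 and Tnfrsf1b stand higher on CDAHFD and Slamf6 and Tnfrsf9 lower.

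The libraries held between 25314988 and 28067393 reads, and the first principal component carried 79.4% of the variance. Genes that mark the T cells themselves were lower on CDAHFD: 6 of 7 CD3, CD8 and T cell receptor genes fell, and their summed level was 101915 to 102981 on ND and 81851 to 83222 on CDAHFD. Macrophage markers rose in 10 of 10 genes, with a summed level of 12139 to 13309 on ND and 113373 to 124001 on CDAHFD. Erythroid markers rose in 6 of 6 (816 to 860.2 against 8094 to 8339), plasma cell markers in 4 of 5 tested (2844 to 3015 against 10399.7 to 11282) and neutrophil markers in 5 of 7 (2342 to 2345 against 5895 to 6860). B cell markers fell in 6 of 6 (21167 to 22021 against 15867 to 16761) and dendritic cell markers in 6 of 7 (7527 to 8144 against 5334 to 5864). Of 6 NK cell markers 1 rose and 1 fell (444 to 499 against 771 to 838), and of 8 CD4 and regulatory T cell markers 3 rose and 2 fell (2668 to 2929 against 2630.0 to 2784). Neither of the 2 platelet markers tested passed the test (106 to 132 against 88.8 to 121). No marker was at 0 in every library. In bulk RNA, fewer cells of a type and less RNA per cell cannot be told apart, and the part of these other cells in the receptor values was not tested.

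The 10 genes were therefore also given with the 7 genes Cd3d, Cd3e, Cd3g, Cd247, Cd8a, Cd8b1 and Trac held level between the libraries, a scaling to T cell transcripts. It moves every gene in the same direction, shifting the median log2 fold change of all tested genes by 0.31, from -0.01 to 0.30, so it leaves the differences between the 10 genes as they were. On this scale 65.8% of all tested genes were called, 61.0% as higher and 4.87% as lower on CDAHFD. Of the 10 receptors, 6 were higher, 2 were lower and 2 did not pass, with a median log2 fold change of 0.17, below the 0.30 of all tested genes.

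Relative to T cell genes, Tnfrsf1b rose by a log2 fold change of 1.05 (limma, adjusted p = 2.66e-18) and Cd28 by 0.70 (adjusted p = 3.76e-14). Slamf6 and Tnfrsf9 were lower on this scale as well, with log2 fold changes of -0.34 (adjusted p = 6.04e-08) and -0.38 (adjusted p = 0.00293). These 4 genes kept their direction and their call under every one of the 18 alternative fits. Cd27 was level with the T cell genes at -0.0073 (95% interval -0.09 to 0.08, limma, adjusted p = 0.886), as against adjusted p-values up to 0.00393 in the other alternatives. Cd226 was at -0.066 (95% interval -0.17 to 0.04, limma, adjusted p = 0.266), as against adjusted p-values up to 0.0103 in the others. Icos (0.20, adjusted p = 0.0028), Tnfrsf18 (0.26, adjusted p = 0.00417) and Cd2 (0.14, adjusted p = 0.0142) turned from below to above 0 with this scaling, and Tnfrsf4 went from 0.17 to 0.48 (limma, adjusted p = 0.00104).

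**Figure D3:**
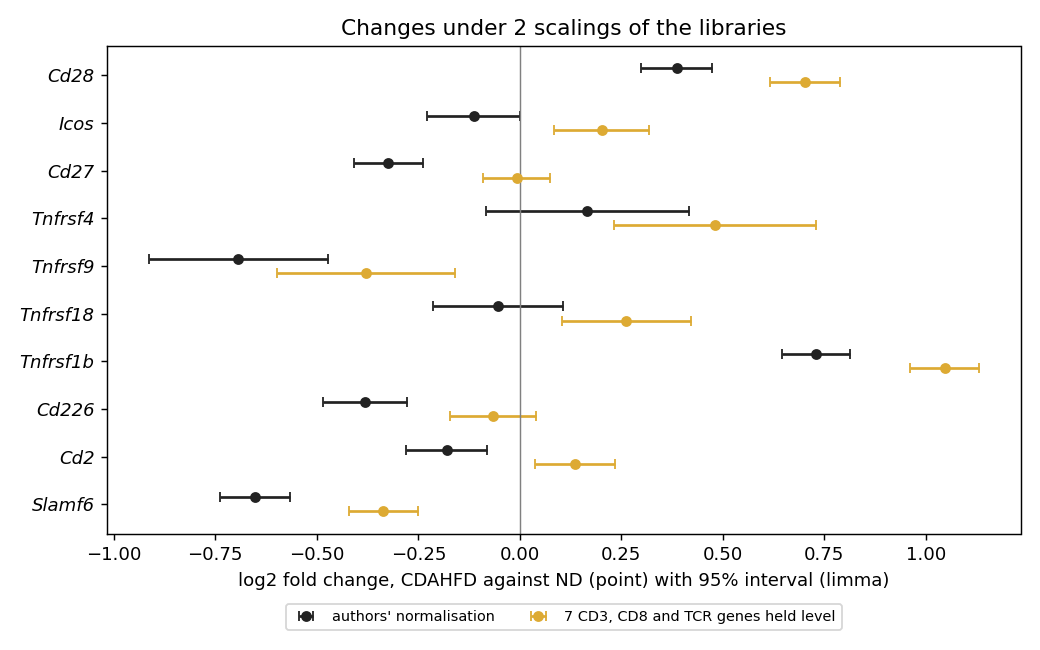
Log2 fold change of CDAHFD against ND for each receptor gene with its 95% interval from limma, under the authors' normalisation and with 7 CD3, CD8 and T cell receptor genes held level. Cd28, Tnfrsf1b, Tnfrsf9 and Slamf6 stay on 1 side of 0 under both, while the intervals of Cd27 and Cd226 reach 0 and Icos, Tnfrsf18 and Cd2 change side under the second.

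The same comparison made within each library, as the log2 ratio of a receptor to the mean of the 7 T cell genes, gave no overlap between the diets for 8 of the 10 receptors, against 68.9% of all tested genes. Tnfrsf1b differed by 1.05 and Cd28 by 0.70 (exact two-sided permutation test, p = 0.1 for each, the smallest that 3 against 3 libraries with 20 regroupings can give). All 8 ratios without overlap reached that p, and none of the 10 tested could go below it. Cd27 (-0.0072, exact permutation p = 0.8) and Cd226 (-0.065, exact permutation p = 0.4) overlapped. The 7 reference genes were not equal among themselves, and ran from a log2 fold change of -0.09 for Cd3e (limma, adjusted p = 0.0801) to -0.46 for Cd3g. Against Cd3e alone the differences were 0.82 for Tnfrsf1b, 0.47 for Cd28, -0.56 for Slamf6, -0.60 for Tnfrsf9, -0.24 for Cd27 and -0.29 for Cd226. Against Cd3e, Icos (-0.026) and Cd2 (-0.092) turned below 0, and Tnfrsf18 (0.035) and Tnfrsf4 (0.25) stayed above it. With Cd3e as the reference 5 of the 10 receptors did not overlap between the diets, against 48.2% of all tested genes. They were Tnfrsf1b, Cd28, Slamf6, Tnfrsf9 and Cd27, the last of which overlapped with the 7-gene reference (exact permutation p = 0.1 for each). Icos, Tnfrsf4, Tnfrsf18, Cd226 and Cd2 overlapped, with exact permutation p from 0.2 to 0.9.

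Of the 12 genes for ligands of these receptors, 11 were tested, of which 6 were higher on CDAHFD, 1 was lower and 4 did not pass, with a median log2 fold change of 0.62. Over all tested genes, 24.6% were higher and 22.5% lower. With T cell genes held level, 10 were higher and Lta did not pass, where 61.0% of all tested genes were higher. Cd80 and Cd86, the ligands of CD28 on antigen-presenting cells, both rose. Cd80 gave 115, 170.4 and 169 normalised counts on ND and 350.0, 311 and 320.4 on CDAHFD, a log2 fold change of 1.13 ± 0.13 (SE, limma with adjusted p = 6.52e-08). Cd86 went from 1449 ± 131 to 3161 ± 245 (SD, n = 3 each), also by 1.13 (SE 0.06, limma, adjusted p = 3.91e-11). These genes belong mainly to antigen-presenting cells, and the macrophage marker Csf1r went from 3327 to 27030.4 normalised counts in the same libraries, whose part in the ligand values was not tested.

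The ligands of OX40 and GITR, and 1 of the ligands of CD226, were rare transcripts. Tnfsf4, the OX40 ligand, went from 7.42 to 27.7 normalised counts (limma, log2 fold change 1.90, adjusted p = 2.06e-04), from 22 reads in all ND libraries against 84. Tnfsf18, the GITR ligand, went from 7.05 to 20.4 (2.90-fold, adjusted p = 0.00329), and Nectin2, which encodes CD112, from 9.39 to 34.7 (log2 fold change 1.84, adjusted p = 6.23e-05). At such levels the log2 values, which carry an added count of 1, understate the change. The antisense gene Gm20512 shares 135 exonic bases with Nectin2.

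Pvr, which encodes CD155, the other ligand of CD226, stood at 574 ± 38.0 on ND and 592 ± 54.3 on CDAHFD (SD, n = 3 each), with a log2 fold change of 0.04 (95% interval -0.11 to 0.20, limma, adjusted p = 0.684) that turned to -0.026 without the third CDAHFD library. Tnf, a ligand of TNFR2, was at 278 and 301 (log2 fold change 0.11, adjusted p = 0.371). Lta, another ligand of TNFR2, was at 237 and 207 (-0.19, adjusted p = 0.181), a value that turned to 0.13 with T cell genes held level. Neither TNFR2 ligand passed the test on the authors' normalisation, while the receptor Tnfrsf1b rose. With T cell genes held level, Tnf was called higher (0.43, limma, adjusted p = 3.40e-04), as was Pvr (0.36, adjusted p = 1.91e-04). Icosl, the ICOS ligand, was at 1509.5 and 1645 (log2 fold change 0.12, limma, adjusted p = 0.0454), and lost the call in 10 of 18 alternatives, where the adjusted p reached 0.214. Cd48, the ligand of CD2, fell from 4083 to 3659 (log2 fold change -0.16, adjusted p = 0.00206) but was higher on CDAHFD, by 0.16, with T cell genes held level. Tnfsf9, the CD137 ligand, was at 23.8 and 36.4 (0.62, adjusted p = 0.0594), and it shares 192 exonic bases with the opposite-strand gene Gm11110, which held 65.3 to 114 normalised counts. Cd70, the CD27 ligand, was not tested, with 1 read in all ND libraries and 4 in all CDAHFD libraries.

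**Figure D4:**
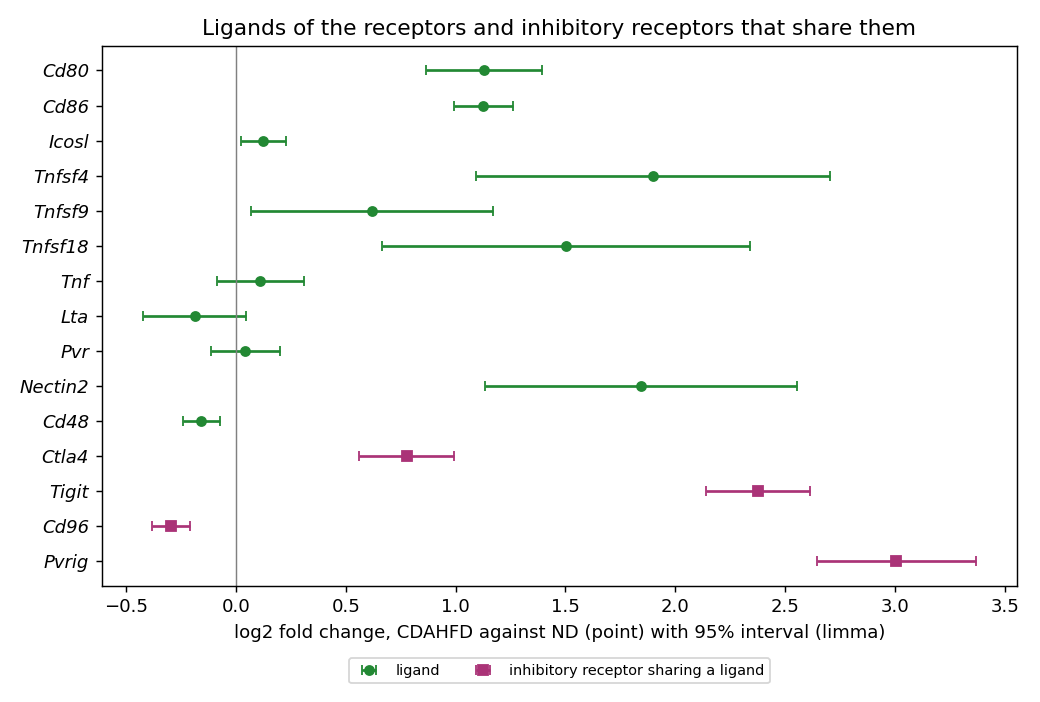
Log2 fold change of CDAHFD against ND with its 95% interval from limma for the 11 tested ligands and the 4 inhibitory receptors that share a ligand with CD28 or CD226. On the authors' normalisation the called genes Cd80, Cd86, Icosl, Tnfsf4, Tnfsf18, Nectin2, Ctla4, Tigit and Pvrig lie above 0, and the called genes Cd48 and Cd96 lie below it. With T cell genes held level, Cd48 is above 0 and Cd96 is not called.

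Inhibitory receptors that compete for the same ligands were called in all 4 cases on the authors' normalisation, 3 of them as higher. Of all tested genes, 47.1% were called and 24.6% were higher. With T cell genes held level, 3 of the 4 were higher and 1 was not called, where 61.0% of all tested genes were higher. Ctla4, which binds CD80 and CD86 more tightly than CD28 does, gave 182, 173 and 209 normalised counts on ND and 295, 325 and 349 on CDAHFD, a log2 fold change of 0.78 ± 0.11 (SE, limma with adjusted p = 5.13e-07). Regulatory T cells carry much CTLA-4, and their transcription factor gene Foxp3 went from 114 ± 11.1 to 206 ± 20.8 (SD, n = 3 each) in these libraries. Of the 8 CD4 and regulatory T cell markers, Foxp3 among them, 3 rose, 2 fell and 3 were not called, and their part in the Ctla4 value was not tested. Tigit, which competes with CD226 for CD155, gave 74.0, 81.6 and 73.5 on ND and 419.7, 395 and 387 on CDAHFD (log2 fold change 2.38, limma, adjusted p = 2.49e-16). Pvrig, which binds CD112, went from 23.6 ± 3.01 to 196 ± 9.94 (log2 fold change 3.01, adjusted p = 2.06e-14). Cd96, a further CD155 receptor, fell from 4680.1 ± 18.2 to 3809 ± 186 (log2 fold change -0.30, adjusted p = 1.00e-06) but was level with the T cell genes, at 0.018, when these were held level.

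Ratios within a library do not depend on how libraries are scaled, and 3 were computed. They are not per length, so the level of each ratio is not read, only its difference between the diets. The ratio of Cd28 to Ctla4 was 18.1, 17.9 and 15.6 on ND and 14.8, 12.9 and 11.7 on CDAHFD. All CDAHFD libraries lay below all ND libraries, and the mean log2 ratio differed by -0.39, to 0.763 of its ND value, although Cd28 itself rose. The ratio of Cd226 to Tigit was 41.1, 40.1 and 46.5 on ND and 6.37, 6.05 and 6.21 on CDAHFD, so that its mean log2 value differed by -2.76, to 0.148 of its ND value. For both ratios the exact two-sided permutation p was 0.1, the smallest possible, and 0.15 after Benjamini-Hochberg adjustment over the 3 ratios. The ratio of Cd226 to Cd96 was 0.649, 0.697 and 0.734 on ND and 0.665, 0.650 and 0.644 on CDAHFD, and overlapped between the diets (exact permutation p = 0.3). NK cells also express TIGIT and CD226. Of the 6 NK cell markers, 1 rose (Klre1, from 160 to 511 normalised counts), 1 fell and 4 were not called. The median log2 fold change of the 6 was -0.03, and the part of NK cells in the ratio was not tested.

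**Figure D5:**
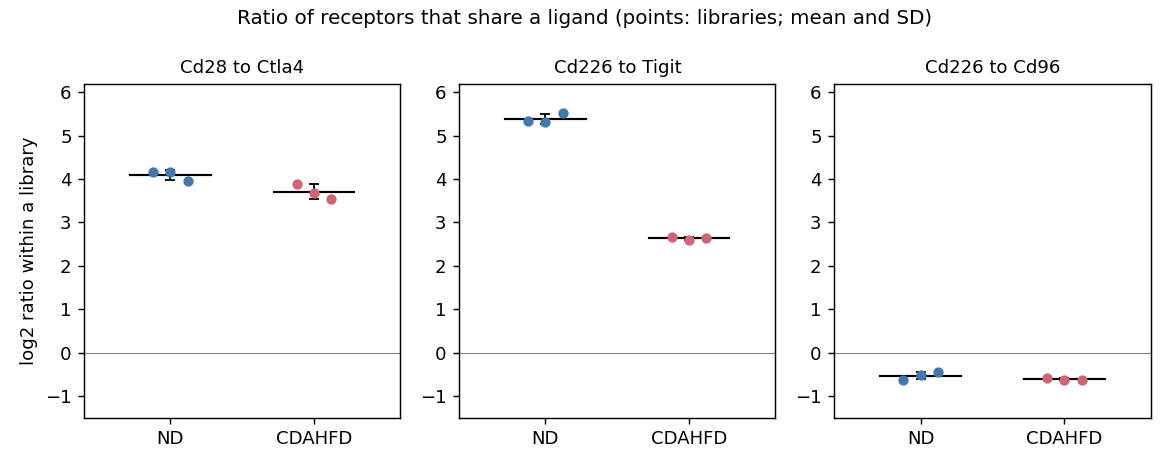
Log2 ratio of Cd28 to Ctla4, Cd226 to Tigit and Cd226 to Cd96 within each library, with the mean ± SD of 3 libraries per diet. The first 2 ratios are lower in every CDAHFD library, with means of 4.10 against 3.71 and 5.39 against 2.63, and the third overlaps.

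Among 16 other costimulatory or accessory receptors, 5 rose, 4 fell and 7 were not called, with a median log2 fold change of 0.09. Across all tested genes, 24.6% rose and 22.5% fell. With T cell genes held level the counts were 10, 1 and 5, where 61.0% of all tested genes were higher. The 4 with the smallest adjusted p were Cd81, Icam1, Cd5 and Cd6. Cd81, which encodes a tetraspanin, rose from 1186 to 3657 (log2 fold change 1.63, limma, adjusted p = 1.55e-21), and Icam1, the ligand of the integrin LFA-1, from 2515 to 3689.6 (0.55, adjusted p = 5.33e-12). Cd5, which dampens T cell receptor signals, fell from 4975 to 3571 (-0.48, adjusted p = 9.13e-11), with T cell genes held level too. Cd6, its paralog and an adhesion receptor, fell from 7829 to 6052 (-0.37, adjusted p = 7.25e-09), a call that was lost with T cell genes held level (-0.055, adjusted p = 0.22, against at most 0.00253 in the other alternatives). The count of 9 called genes was 5 without the trend and robust estimation.

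Slamf6 lies in a row of 7 related genes on chromosome 1, and the row did not move as a block on the authors' normalisation. Slamf6, Cd48 and Slamf1 fell, Cd244a rose, and Cd84, Ly9 and Slamf7 did not pass the test. Cd244a, a receptor for CD48 that is also carried by NK cells and macrophages, went from 396 ± 46.2 to 642 ± 64.4 (SD, n = 3 each, log2 fold change 0.70, limma, adjusted p = 3.25e-07). Slamf1 went from 329 to 280.1 (-0.23, adjusted p = 0.0412). Ly9 was at 5816 and 6114 and Cd84 at 4035 and 3881 normalised counts. Of the 7 genes, Slamf6 was the lowest by log2 fold change. With T cell genes held level it was the 1 gene that fell, against 5 that were higher, as were 61.0% of all tested genes.

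The signalling genes downstream of these receptors were mixed: of 41, 15 rose, 11 fell and 15 were not called, with a median log2 fold change of 0.01. For comparison, 24.6% of all tested genes rose and 22.5% fell. With T cell genes held level, 37 were higher and 1 was lower, where 61.0% of all tested genes were higher and 4.87% lower. The median of the 41 was then 0.33, against 0.30 over all tested genes. Sh2d1b1, an adaptor of SLAM-family receptors known from NK cells and antigen-presenting cells, rose from 66.1 ± 9.15 to 411 ± 16.5 (SD, n = 3 each, log2 fold change 2.63, limma, adjusted p = 1.53e-16). Sh2d1a, which encodes SAP, the T cell adaptor of SLAMF6, fell from 963 to 801 (log2 fold change -0.27, limma, adjusted p = 4.40e-04) but was at 0.049, with no call, when T cell genes were held level. Sh2d1a was picked for mention once its value was known.

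Of the kinase pathway that CD28 and ICOS engage, Pik3r1, a regulatory subunit of phosphoinositide 3-kinase, rose from 6660.2 to 9302 (log2 fold change 0.48, limma, adjusted p = 1.55e-11). Of the NF-kB pathway, the feedback inhibitors Tnfaip3 and Nfkbia rose, Tnfaip3 from 3268 to 4471 (0.45, adjusted p = 1.98e-10) and Nfkbia from 3396 to 4187 (0.30, adjusted p = 3.83e-07). Pdk1 fell from 7721 to 5369 (-0.52, adjusted p = 4.09e-12). That symbol belongs to a pyruvate dehydrogenase kinase of metabolism, not to a kinase of receptor signalling, and without it 15 of 40 genes rose and 10 fell. Without the trend and robust estimation, the count of called signalling genes was 17.

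Genes whose pattern over the 6 libraries was most like that of Tnfrsf1b, by Euclidean distance of log2 values centred on the ND mean, were Xbp1 (distance 0.0552), Ptpn22 (0.0711) and Pld4 (0.0758). Xbp1 is a transcription factor gene and one of the plasma cell markers above, Ptpn22 encodes a lymphocyte phosphatase, and Pld4 encodes an endolysosomal nuclease of myeloid cells. Ptpn22 went from 6637 to 10856 normalised counts (log2 fold change 0.71, limma, adjusted p = 4.33e-15). Those nearest to Tnfrsf9 were Gpr83 (0.172), B3gnt8 (0.180) and Prob1 (0.198). Gpr83, a G protein-coupled receptor gene known from regulatory T cells, went from 269 to 170.0 (log2 fold change -0.66, adjusted p = 1.16e-05). The distances are a description over 6 libraries in 2 groups, in which many genes share a difference between the diets.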

How the data were processed

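Bulk RNA of splenic CD8+ T cells was sequenced in 3 ND and 3 CDAHFD libraries, with either a whole-RNA or an mRNA kit per the labels' protocols, which do not say which library had which kit, so a kit difference between the diets, if there was one, cannot be told apart from diet. The build was mm10 per the submitters' processing notes. The aligner, counter, strand setting and annotation are not given in the sources used here. Signal values, read counts over a size factor for each library, make up the 1 table that the authors deposited. All values (100%) were whole multiples, within 0.001, of what 1 read is worth, and the factors equalled median-of-ratios size factors (largest relative difference 2.66e-15). The diet columns spelled CDHFD were matched to the CDAHFD samples, the other group. Symbols were matched for 26147 of 26181 Ensembl IDs, and coordinates came from GENCODE release M21.

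limma 3.58.1 (R 4.3.3) was fitted to log2(normalised count + 1) of 15819 genes with a mean of at least 10, with diet as the only term, a mean-variance trend, robust estimation and Benjamini-Hochberg adjustment. Genes called at an adjusted p under 0.05 are said to have risen or fallen. The log2 scale understates changes of low genes. edgeR 4.0.16 and DESeq2 1.42.0 were run on the recovered reads as alternatives, beside other pseudocounts (0.5 and 5), filters, scalings, sample weights, a replicate block and each library left out. The script was tested on simulated data. Read sampling limits precision for rare genes, and no sample was left out.

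All 10 receptors, every tested ligand and competing receptor, the 4 other receptors, 6 signalling genes and 3 pattern neighbours ranked first by adjusted p or distance are named. Further genes, among them Sh2d1a, Cd244a, Slamf1, Ly9, Cd84, Slamf7, Csf1r, Foxp3 and Klre1, were named outside this rule, with their values known. Of the 6 signalling genes, 1 is not reported here. The members and lists were chosen with earlier results of these data known. Promoter windows came from RefSeq on GRCm38.p6. Between libraries of 1 diet, chi-square per degree of freedom was 2.85 to 6.16, against 73.2 to 81.2 between diets, so no library repeats another.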

Additional observations from a re-analysis of the deposited data

How the results depend on the processing

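For single genes, 592 of 626 values recomputed under the alternatives kept their direction and their side of the threshold. Of ratios, 110 of 114 kept their sign, and of counts of called genes, 105 of 108 stayed within 1.5 times. Between 6 and 8 of the 10 receptors were called in every alternative, but the 2 higher and 5 lower became 6 higher and 2 lower with T cell genes held level. All tested genes moved likewise, from 24.6% higher and 22.5% lower to 61.0% higher and 4.87% lower. With T cell genes held level, the log2 fold changes were 0.20 for Icos, 0.26 for Tnfrsf18, 0.14 for Cd2, 0.48 for Tnfrsf4, -0.0073 for Cd27 and -0.066 for Cd226, and, among other genes, 0.13 for Lta, 0.16 for Cd48 and 0.018 for Cd96. That scaling shifts all genes by construction. Icos was called at -0.13 with equal totals (limma, adjusted p = 0.0489) and at -0.13 with sample weights (adjusted p = 0.0369), and ranged from -0.16 to -0.076 with each library left out. Cd2 kept -0.18 without trend and robust estimation, where the call was lost. Pvr ranged from -0.026 to 0.11 with each library left out, and turned without the third CDAHFD library. Lta passed the test (-0.31) without the second ND library. Called ligands numbered 4 with a mean of at least 50, where Tnfsf4, Tnfsf18 and Nectin2 were too low to be tested, and called other receptors numbered 5 and signalling genes 17 without trend and robust estimation. Against Cd3e alone the log2 ratios were -0.026 for Icos and -0.092 for Cd2, and the ratio of Cd27 to the 7 T cell genes ranged from -0.021 to 0.019 with each library left out. The cause of these changes was otherwise not tested.

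Over all genes, 7489 were called by edgeR, 6755 by DESeq2 and 6573 to 7537 with each library left out. Same-numbered libraries of the diets had correlations of 0.041, -0.051 and 0.062 between their deviations, against -0.089 to 0.051 for other pairs. The numbers thus gave no sign of pairing, which 3 libraries per diet cannot exclude. With the replicate block 7 receptors and 7250 genes in all were called, and Icosl had an adjusted p of 0.0664 (limma). Depth limits Cd70, Tnfsf4, Tnfsf18 and Nectin2, which rest on few reads.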
